A study of Mus musculus with 15 samples.

Results

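Microglia sorted for low autofluorescence from old mice were set against microglia of young mice. The comparison rests on 6 of the 15 libraries of the series: AF-low 1 to 3, from brains of 18-month-old mice gated as low autofluorescent, and young 1 to 3, from 3-month-old mice. Members were taken by their library names, and neither group had received a treatment. The other 9 libraries, also of 18-month-old mice, entered the same model: 5 of untreated microglia gated as high autofluorescent (AF-high) and 4 of microglia from mice that received PLX5622, which blocks the CSF1 receptor. The young libraries carry no autofluorescence label, so age and gate cannot be told apart here. The labels call the libraries biological replicates and do not tell strain, sex, genotype, sort markers or whether animals were pooled, so a p-value reflects only how these libraries scatter.

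Microglia are the macrophages of the brain parenchyma, and they keep themselves at rest through signals such as CSF1, TGF-beta and purines. With age a share of them collects lipofuscin, undegraded lysosomal material that glows in flow cytometry. Microglia that meet damaged tissue or myelin debris take on what is called the disease-associated state, in which homeostatic genes recede while lipid, phagocytic and adhesion genes increase.

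Values are TPM, a level scaled to transcript length and to a like total in each library. Differences are AF-low minus young in log2(TPM + 1) with the standard error of the limma fit, and adjusted p-values run over the 13175 genes tested, those with at least 1 TPM in at least 3 libraries. The AF-low libraries scattered more than the young ones: each lay 0.392 to 0.472 log2 units from its group mean (root mean square over genes), against 0.228 to 0.258. Microglial genes were high in both groups. The receptor Csf1r was at 1068, 1201 and 1188 TPM against 1128, 1292 and 1293 TPM. P2ry12 was lower in AF-low, at 1183, 1723 and 1889 TPM against 2265, 2354 and 2718 TPM. Of 52 listed microglial genes 51 were in the table, which holds no value of 0, so that count does not measure purity. Young 1 and 2 also held choroid plexus transcripts. Their summed choroid plexus markers came to 8135 and 5339 TPM, against 201 TPM in young 3 and 64.7 to 304 TPM in AF-low. Markers of border-associated macrophages, the macrophages of meninges and vessels, summed to 801 to 876 TPM in AF-low and 555 to 637 TPM in young libraries. Monocyte markers summed to 358 to 486 and 199 to 302 TPM. In a sorted bulk sample, fewer cells of a type and less RNA per cell cannot be told apart.

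Old AF-low microglia had more RNA of 6 genes, and no gene passed as lower (limma, 6 higher and 0 lower of 13175, or 0.0455% and 0%). At an unadjusted p under 0.05 there were 1551 genes, 649 higher (4.93%) and 902 lower (6.85%). The 6 were Cxcl13, Ifi207, Lilrb4a, Ptger4, Emp3 and Diaph1, at 2.35 to 23.9 times their mean young level. The upper value is that of Cxcl13, for which the ratio was 63.4 without young 1. In each of the 6, every AF-low library lay above every young library. That alone is not rare: the groups did not overlap for 8.25% of all genes in the higher direction and for 11.1% in the lower. The calls rest on the full set of libraries. A fit on the 6 AF-low and young libraries alone called 0 genes (limma, smallest adjusted p = 0.13, 1689 genes at an unadjusted p under 0.05). Leaving out AF-low 1, young 1 or young 2 left 0 genes called, and leaving out AF-low 3 left 1 higher and 1 lower, neither of them among the 6. Without AF-low 2, in contrast, 106 genes were higher and 76 lower, with the 6 among them. Without young 3, 6 were higher, 5 of them from the original list, and 46 lower.

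**Figure D1:**
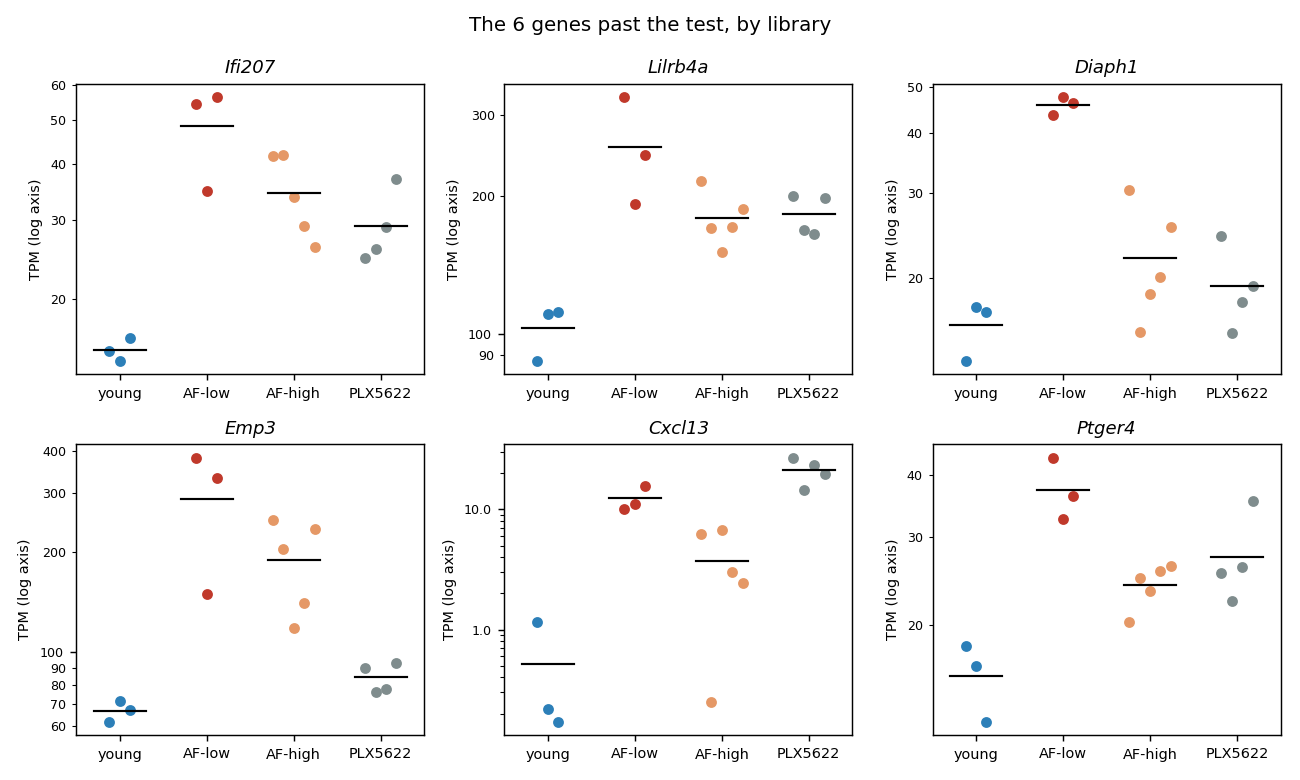
Level of each of the 6 called genes in every library, on a log axis in TPM, with a bar at each group's mean. The 3 AF-low points lie above the 3 young points in each panel, and for Cxcl13 the 4 PLX5622 points (14.5 to 27 TPM) lie within or above the AF-low range.

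Cxcl13, a chemokine that draws B cells through the receptor CXCR5, had the largest ratio of group means of the 6 (chromosome 5, 95956951 to 95961068, plus strand, GRCm38). It stood at 10.1, 11.2 and 15.8 TPM in AF-low 1, 2 and 3 and at 1.16, 0.217 and 0.172 TPM in young 1, 2 and 3. AF-low 3 was highest and young 1 stood above young 2 and 3, and the difference was 3.17 ± 0.52, adjusted p = 0.0462. The young levels were of the order of the pseudocount or below it, so the log2 value moves with that choice. With a pseudocount of 0.1 it was 4.68 and with 5, where Emp3 had the larger value at 1.93, it was 1.64. The other chemokines nearest to the threshold were Cxcl2 and Cxcl16. Cxcl2, a neutrophil attractant, was at 103, 64.8 and 100.3 TPM in AF-low 1, 2 and 3 and at 26.8, 34.6 and 27.6 TPM in young 1, 2 and 3 (1.54 ± 0.34, adjusted p = 0.118). Cxcl16, a transmembrane chemokine, was at 201, 109 and 190.3 TPM against 66.4, 66.8 and 63.4 TPM (1.29 ± 0.29, adjusted p = 0.118). Neither overlapped with young. Ccl25 lay the other way, at 7.68, 12.4 and 8.48 TPM against 15.7, 16.5 and 17 TPM. Of 19 chemokine ligands tested of 24 listed, 1 passed as higher and 0 as lower. Groups did not overlap for 7 higher (36.8%) and 3 lower (15.8%), against 8.25% and 11.1% of all genes. The list's median difference was 0.25 (0.38 without AF-low 1, 0.07 without AF-low 3 and 0.17 without young 3) against -0.04 over all genes.

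Promoter windows were read from RefSeq's GRCm38.p6 table, from 250 bases before to 50 after each start. Of 6 genes looked up, 5 had an entry: the called genes Cxcl13, Emp3, Ifi207 and Ptger4, and Cxcl2. Lilrb4a had none, and the called gene Diaph1 was not looked up. Each window was searched on both strands for an NF-kappaB motif (which is its own near-mirror, so one site can match on both strands), for ISRE as GAAA, 2 bases of any kind and GAAA, for AP-1 as TGANTCA, CRE as TGACGTCA and PU.1 as GAGGAAG. Of 32851 promoters in the table, 4.51%, 3.44%, 7.81%, 1.79% and 13.6% held these motifs, in that order, and 27.9% held any of them. Shown are the window of Ifi207, which held an ISRE, that of Cxcl13, the gene with the largest ratio of group means, and that of Cxcl2, the chemokine next in p, chosen after its values were seen. Capitals mark matches, and sequences run 5′ to 3′ on the gene's strand.
Ifi207, chr1:173741760-173742059, minus strand: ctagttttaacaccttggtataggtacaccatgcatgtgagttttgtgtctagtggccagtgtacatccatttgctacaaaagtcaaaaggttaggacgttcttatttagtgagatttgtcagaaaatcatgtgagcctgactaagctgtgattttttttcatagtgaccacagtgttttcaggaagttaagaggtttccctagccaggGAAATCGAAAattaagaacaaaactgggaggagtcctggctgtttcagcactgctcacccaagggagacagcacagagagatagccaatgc
Cxcl13, chr5:95956689-95956988, plus strand: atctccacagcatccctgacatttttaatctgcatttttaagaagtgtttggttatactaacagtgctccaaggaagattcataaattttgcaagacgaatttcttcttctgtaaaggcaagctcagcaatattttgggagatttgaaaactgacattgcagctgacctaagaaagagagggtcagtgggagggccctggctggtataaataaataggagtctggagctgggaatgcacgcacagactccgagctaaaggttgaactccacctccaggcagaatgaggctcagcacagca
Cxcl2, chr5:90903649-90903948, plus strand: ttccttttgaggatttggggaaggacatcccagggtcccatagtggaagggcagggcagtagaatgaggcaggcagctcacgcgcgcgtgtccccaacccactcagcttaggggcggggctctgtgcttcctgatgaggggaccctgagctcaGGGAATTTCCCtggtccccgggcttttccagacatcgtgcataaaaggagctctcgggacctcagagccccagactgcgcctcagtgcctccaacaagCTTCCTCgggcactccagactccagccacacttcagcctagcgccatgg
The Ifi207 match, GAAATCGAAA, began 41 bases before the start. In Cxcl2 the capitals hold overlapping NF-kappaB matches on both strands, from 97 bases before the start, and a PU.1 match on the reverse strand from base 2 of the transcript. None of the 5 motifs was found in the windows of Cxcl13, Emp3 or Ptger4, which says only that these letters are not there.

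Ifi207 belongs to the p200 family of DNA-sensing and transcription-modulating proteins, whose genes lie side by side (chromosome 1, 173723427 to 173741747, minus strand). It was at 54.3, 34.8 and 56.4 TPM in AF-low 1, 2 and 3 and at 15.3, 14.5 and 16.4 TPM in young 1, 2 and 3. AF-low 2 was the lowest of the AF-low libraries and still more than double the highest young one (1.56 ± 0.23, adjusted p = 0.0374). Ifi204, a close relative involved in sensing of viral DNA, was at 48.6, 41.9 and 45 TPM against 32.6, 19.3 and 25.5 TPM, with no overlap (0.81 ± 0.18, adjusted p = 0.119). Ifi203 was at 13.4, 11.2 and 11.5 TPM against 9.49, 7.1 and 9.83 TPM (0.42 ± 0.26, adjusted p = 0.541). Members of this family are alike in sequence and can share reads, so their separate levels are uncertain. Of 12 p200 genes tested of 13 listed, 1 passed and 11 lay above 0, with a median of 0.49. The groups did not overlap for 5 of 12 (41.7%) in the higher direction and for 0 in the lower. In the wider type I interferon response, of 65 such genes 0 passed either way (6 higher and 2 lower at an unadjusted p under 0.05), and the median was 0.09 (0.0004 without AF-low 3, 0.05 without young 2 and 0.03 without young 3). Among them the helicase regulator Dhx58 was at 25, 27.5 and 9.66 TPM against 7.1, 8.54 and 9.12 TPM and Slfn2, of the schlafen family, at 60.0, 30.4 and 56.3 TPM against 22.7, 19.6 and 18.2 TPM. Irf1, a transcription factor of interferon responses, was at 83.7, 327 and 124 TPM against 315, 273 and 274 TPM; AF-low 2 stood with the young libraries and the other AF-low libraries well under them. Groups did not overlap for 9 of 65 (13.9%) higher and 3 of 65 (4.62%) lower, against 8.25% and 11.1% of all genes. The receptor chain Ifnar1 was at 90.8, 56.4 and 117 TPM against 50.9, 55.2 and 43.6 TPM, and the signal transducer Stat2 at 1557, 1264 and 1310 TPM against 842, 1052 and 1040 TPM, with no overlap in either and adjusted p = 0.336 and 0.344.

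Lilrb4a encodes an inhibitory receptor of myeloid cells that is also counted among disease-associated microglia genes (chromosome 10, 51490956 to 51496611, plus strand). It was at 329, 192 and 246 TPM in AF-low 1, 2 and 3 and at 87.5, 111 and 112 TPM in young 1, 2 and 3. AF-low 1 was highest, and the lowest AF-low library, AF-low 2, exceeded the highest young one (1.27 ± 0.19, adjusted p = 0.0374). Its neighbour Lilr4b is near-identical and can share reads, so how the pair divides them is uncertain. Lilr4b, named here after its values were seen, was at 166, 81.9 and 159.8 TPM against 42.4, 53 and 68 TPM (1.26 ± 0.28, adjusted p = 0.118). Cd300lf, an inhibitory receptor for phospholipids, was at 14.1, 5.22 and 11.9 TPM in AF-low 1, 2 and 3 and at 2.29, 1.12 and 1.14 TPM in young 1, 2 and 3 (2.12 ± 0.38, adjusted p = 0.056). Pvr, a ligand of lymphocyte receptors, was at 120.3, 82.3 and 92.2 TPM against 46.7, 58.2 and 46.7 TPM (0.93 ± 0.18, adjusted p = 0.0791), and Slamf7, a receptor that binds itself, at 18, 7.28 and 7.07 TPM against 1.36, 2.73 and 2.64 TPM (1.77 ± 0.36, adjusted p = 0.0814). These 3 did not overlap with young. Other receptors lay under young. Clec4a3, a C-type lectin, was at 29.6, 38.4 and 35.5 TPM against 58.9, 60.8 and 74.1 TPM, Siglech at 609.8, 822 and 852 TPM against 909, 1030 and 1031 TPM and Cd48 at 36.9, 68.2 and 57.9 TPM against 72.5, 81.1 and 75.7 TPM, again with no overlap. Of 49 costimulatory and inhibitory receptors tested of 60 listed, 1 passed as higher and 0 as lower. Non-overlapping members numbered 16 higher (32.7%) and 7 lower (14.3%), against 8.25% and 11.1% of all genes. The median was 0.14 (0.09 without AF-low 3).

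Ptger4 encodes EP4, a receptor for prostaglandin E2 (chromosome 15, 5206661 to 5244187, minus strand). It was at 43.3, 32.6 and 36.2 TPM in AF-low 1, 2 and 3 and at 18.2, 16.6 and 12.9 TPM in young 1, 2 and 3, a difference of 1.19 ± 0.20, adjusted p = 0.0462. The AF-low values were close to each other and each lay well above the young range. Other genes of the prostaglandin list overlapped with young or lay under it. Ptgs2, the inducible cyclooxygenase, was at 18.6, 11.3 and 25.5 TPM against 12, 11.4 and 8.68 TPM, with AF-low 2 inside the young range. Abcc4, an exporter of prostaglandins, was at 3.25, 5.71 and 7.18 TPM against 10.6, 8.11 and 7.53 TPM, under young without overlap (-0.65 ± 0.29, adjusted p = 0.391). Of 20 genes tested of 29 listed, 1 passed, 14 lay under 0 and the median was -0.18. Non-overlapping genes numbered 1 higher (5.00%) and 4 lower (20%), against 8.25% and 11.1% of all genes.

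Emp3 encodes a small membrane protein of the family of peripheral myelin protein 22 (chromosome 7, 45918023 to 45921404, minus strand). It was at 383, 149.5 and 334 TPM in AF-low 1, 2 and 3 and at 62, 71.4 and 67.1 TPM in young 1, 2 and 3. AF-low 2 was lowest of the AF-low libraries, under 0.5 times the level of the other 2, and yet above the young ones (1.99 ± 0.32, adjusted p = 0.0442). Pmp22, which gives the family its name, was at 2385, 1615 and 2363 TPM against 1216, 1425 and 1210 TPM (0.71 ± 0.17, adjusted p = 0.13), and Emp2 at 8.2, 6.92 and 6.38 TPM against 5.39, 4.39 and 3.26 TPM (0.63 ± 0.24, adjusted p = 0.325). The family thus had 4 tested members of 5 listed, of which 1 passed, and the median was 0.67. Groups did not overlap for 3 (75%) in the higher direction and 0 in the lower, against 8.25% and 11.1% of all genes.

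Diaph1, a formin that nucleates straight actin filaments under the control of RhoA, had the tightest AF-low values of the 6 (chromosome 18, 37843601 to 37935476, minus strand). It was at 43.8, 47.7 and 46.2 TPM in AF-low 1, 2 and 3 and at 13.4, 17.4 and 17 TPM in young 1, 2 and 3, a difference of 1.48 ± 0.23, adjusted p = 0.0442. Its relative Fmnl3, a formin of the cell cortex, was at 129, 105 and 118 TPM against 71.7, 89.5 and 76.4 TPM (0.56 ± 0.18, adjusted p = 0.229). Diaph2 overlapped, at 51.3, 37.8 and 43.3 TPM against 43.3, 50.4 and 52.9 TPM. Profilin, the actin monomer carrier encoded by Pfn1, was at 568, 390.3 and 594 TPM against 317, 381 and 322 TPM (0.59 ± 0.19, adjusted p = 0.248). Of 33 formin and actin nucleation genes tested of 38 listed, 1 passed and 28 lay above 0. Groups did not overlap for 9 higher (27.3%) and 2 lower (6.06%), against 8.25% and 11.1% of all genes. The median was 0.19 (0.11 without AF-low 1 and 0.12 without young 1). Mkl1, a coactivator that senses free actin, lay the other way at 20.9, 11.2 and 17.8 TPM against 22.7, 24.4 and 21.3 TPM. So did Fnbp1l, an F-BAR protein that links curved membrane to actin, at 12.5, 15.1 and 12 TPM in AF-low 1, 2 and 3 and at 53, 33.8 and 22.2 TPM in young 1, 2 and 3 (-1.31 ± 0.24, adjusted p = 0.056). Among the named lower genes it had the smallest adjusted p, together with Fam107a. Its young values fell in the same order as the choroid plexus load of those libraries, with young 1 highest. The part of that load in it was not tested.

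**Figure D2:**
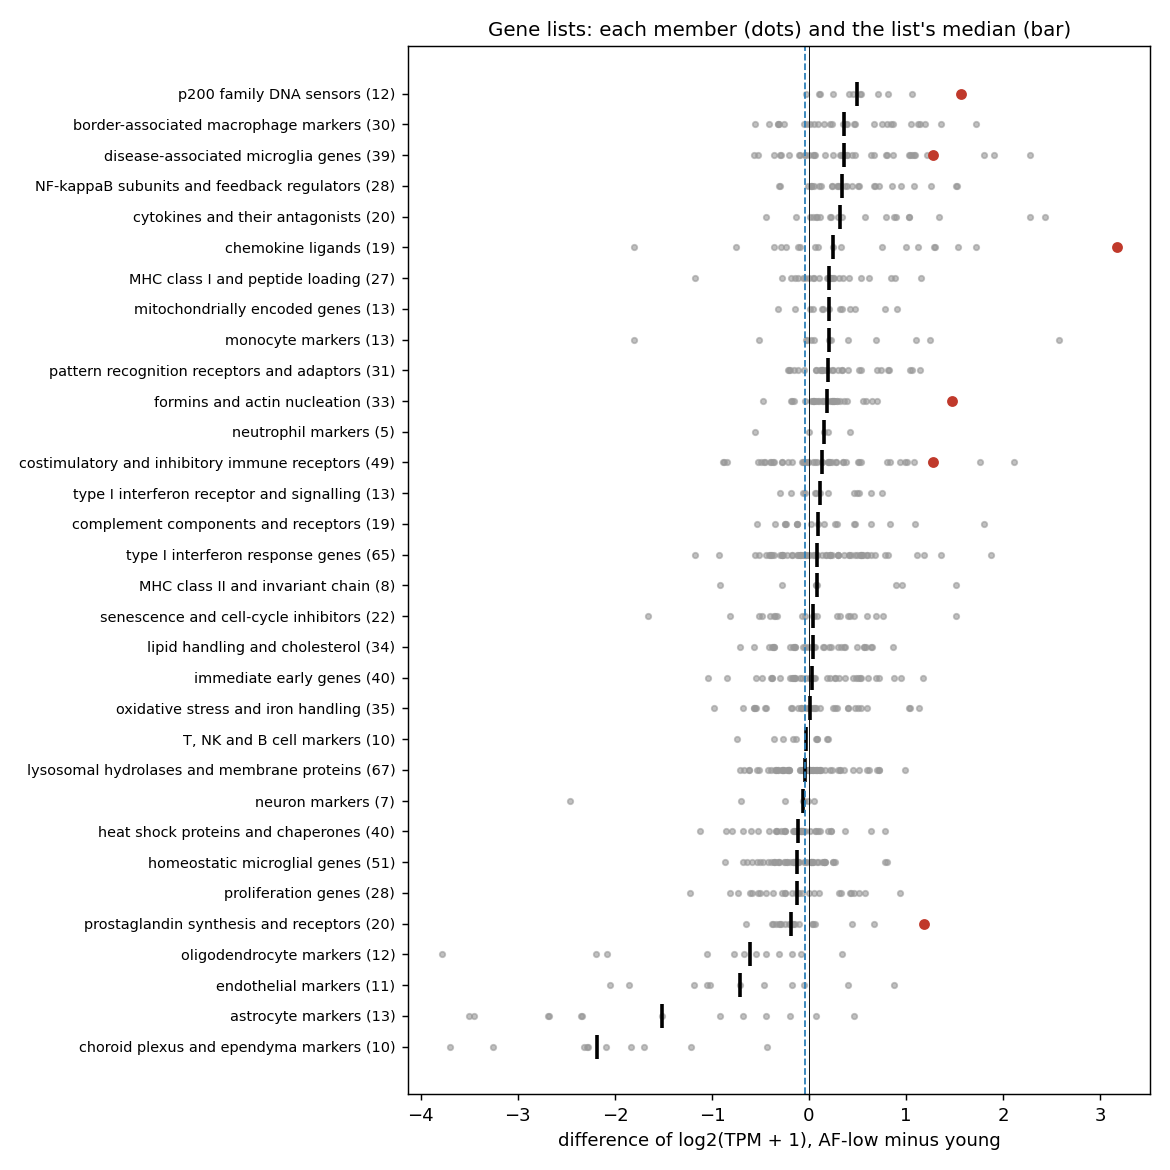
Difference of log2(TPM + 1), AF-low minus young, of each tested member (dots) of the gene lists with at least 5 tested members; the bar is the list's median, red dots are members with adjusted p under 0.05 and the dashed line is the median of all genes (-0.04). Inflammatory, p200 and disease-associated lists sit to the right, and marker lists of choroid plexus and astrocytes far to the left.

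Cytokine and NF-kappaB genes lay mostly above 0 without single genes passing. Spp1, which encodes the secreted adhesion protein osteopontin, was at 12.3, 5.68 and 18.6 TPM in AF-low 1, 2 and 3 and at 0.741, 1.93 and 2.01 TPM in young 1, 2 and 3 (2.28 ± 0.46, adjusted p = 0.0814). The interleukin-1 receptor antagonist Il1rn was at 28.7, 5.06 and 16.8 TPM against 1.73, 3.16 and 0.767 TPM (2.44 ± 0.65, adjusted p = 0.174), and the B-cell survival factor Tnfsf13b at 70.9, 50.6 and 36.4 TPM against 25.8, 23.9 and 32.2 TPM (0.88 ± 0.26, adjusted p = 0.211). In each the lowest AF-low library still exceeded the highest young one, although AF-low 2 came close for Il1rn. The inflammatory cytokine Tnf was at 402, 225 and 483 TPM against 183, 194 and 191 TPM (0.89 ± 0.28, adjusted p = 0.227) and Il1b at 651, 322 and 902 TPM against 218, 253 and 211 TPM (1.34 ± 0.48, adjusted p = 0.287). Both were lowest in AF-low 2 among the AF-low libraries. Of 20 cytokine genes 0 passed (8 higher and 0 lower at an unadjusted p under 0.05), 18 lay above 0 and 8 of 20 (40%) did not overlap in the higher direction, against 8.25% of all genes. None (0) did so in the lower. Bcl2a1a, an NF-kappaB target that protects from apoptosis, was at 48.4, 68.4 and 46.1 TPM against 22.8, 20.7 and 21.8 TPM (1.26 ± 0.27, adjusted p = 0.103); it has near-identical copies that can share its reads. Traf1, a signalling adaptor of TNF receptors, was at 7.98, 6.82 and 9.01 TPM against 2.13, 2.06 and 2.08 TPM and Tnip3, a brake on NF-kappaB, at 25.3, 4.55 and 11.1 TPM against 2.99, 4.35 and 2.58 TPM. Of 28 NF-kappaB genes 0 passed (8 higher and 0 lower at an unadjusted p under 0.05) and 25 lay above 0, with a median of 0.34. Groups did not overlap for 8 of 28 (28.6%) higher and 1 of 28 (3.57%) lower. Among pattern receptors, Tlr2, which recognises bacterial lipoproteins, was at 239, 179 and 251 TPM against 125, 138 and 130 TPM and the kinase Irak2 at 154, 92.9 and 137 TPM against 59.4, 69.5 and 83.6 TPM. Of 31 pattern recognition genes 0 passed (6 higher and 0 lower at an unadjusted p under 0.05) and 6 of 31 (19.4%) did not overlap in the higher direction. Border-associated macrophages and monocytes also express many of these genes, and their summed markers were higher in AF-low (above); their part in these lists was not tested.

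Antigen presentation genes gave single genes near the threshold. Cd74, the invariant chain that guides MHC class II, was at 151, 123 and 134 TPM in AF-low 1, 2 and 3 and at 64.5, 78.2 and 75.4 TPM in young 1, 2 and 3 (0.89 ± 0.15, adjusted p = 0.056). The class II chain H2-Aa was at 88.2, 73.3 and 96 TPM against 26.7, 29.5 and 31.4 TPM, more than double young in every AF-low library. Its adjusted p was 0.605, in a model that takes 1 spread for the 4 groups, and the gene had a mean of 50.1 ± 70.6 TPM in AF-high (n = 5) and 15.9 ± 8.98 in PLX5622 (n = 4). H2-Ab1 overlapped at 45.2, 9.91 and 24.3 TPM against 7.07, 10.2 and 18 TPM. H2-DMb1, a loading factor, was at 18.7, 60.8 and 19.3 TPM against 55.7, 51.1 and 55.2 TPM, with AF-low 2 above the young libraries and the other 2 far under them. Of 8 class II genes 0 passed (1 higher and 1 lower at an unadjusted p under 0.05), and the median was 0.08 (from -0.01 without AF-low 2 to 0.27 without AF-low 3). Class II is also carried by border-associated macrophages, whose summed markers were higher in AF-low (above); their part in Cd74 and H2-Aa was not tested. In class I, H2-Q7 was at 250.3, 155 and 237 TPM in AF-low 1, 2 and 3 and at 82.7, 99.5 and 99.5 TPM in young 1, 2 and 3 (1.15 ± 0.22, adjusted p = 0.0716) and H2-Q6 at 248, 218 and 249.9 TPM against 96.5, 143 and 154 TPM (0.89 ± 0.25, adjusted p = 0.201); these neighbours can share reads. Psmb9, an immunoproteasome subunit, was at 9.68, 32.8 and 13 TPM against 63.1, 32.9 and 25.9 TPM. Of 27 class I and loading genes 0 passed (6 higher and 0 lower at an unadjusted p under 0.05), 20 lay above 0, and 8 of 27 (29.6%) did not overlap in the higher direction and 0 in the lower. Over all genes those shares were 8.25% and 11.1%.

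Of the disease-associated genes, 29 of 39 lay above 0 and 10 under it. The integrin Itgax, known as CD11c, was at 13.8, 7.04 and 20.1 TPM in AF-low 1, 2 and 3 and at 2.92, 2.96 and 2.83 TPM in young 1, 2 and 3 (1.80 ± 0.32, adjusted p = 0.056). Lpl, a lipase, was at 59.5, 48.9 and 48.3 TPM against 34.7, 31.9 and 32.6 TPM (0.64 ± 0.15, adjusted p = 0.13), and Cybb, the catalytic subunit of the phagocyte oxidase, at 30.1, 17.6 and 25 TPM against 9.4, 9.79 and 14.5 TPM (1.04 ± 0.27, adjusted p = 0.166). The receptor kinase Axl was at 13.3, 16.6 and 12.9 TPM against 5.54, 6.38 and 6.48 TPM and the beta-glucan receptor Clec7a at 42.9, 31.1 and 21 TPM against 13.9, 13.2 and 15.3 TPM. In all 5 the groups were apart, and AF-low 2 was lowest for Itgax and Cybb but highest for Axl. The core genes Apoe, Trem2, Tyrobp, Ctsd, Lgals3 and Cst7 overlapped. Apoe, the lipid carrier, was at 349, 648 and 619 TPM against 453, 421 and 348 TPM and its receptor Trem2 at 304, 498 and 413 TPM against 466, 538 and 522 TPM. Ank, a membrane protein that exports pyrophosphate, lay under young at 15.1, 16.6 and 11.6 TPM against 19.6, 21.8 and 24.1 TPM (-0.57 ± 0.20, adjusted p = 0.282). Of 39 disease-associated genes tested of 46 listed, 1 passed as higher and 0 as lower. The groups did not overlap for 17 of 39 (43.6%) in the higher direction and 1 of 39 (2.56%) in the lower. Over all genes those shares were 8.25% and 11.1%. The list's median was 0.36. It stayed at 0.34 with young 1 and 2 left out. The summed markers of border-associated macrophages and of monocytes were higher in AF-low than in young without overlap (above), and their part in this list was not tested.

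Homeostatic genes leaned the other way by a small amount, with a median of -0.12 against -0.04 over all genes. That median ran from -0.17 without young 1 to -0.06 without AF-low 1. P2ry12, the ADP receptor that steers microglial processes, was at 1183, 1723 and 1889 TPM in AF-low 1, 2 and 3 and at 2265, 2354 and 2718 TPM in young 1, 2 and 3 (-0.64 ± 0.25, adjusted p = 0.325). Fcrls, a Fc receptor-like marker of microglia, was at 509, 733 and 608 TPM against 863, 919 and 968 TPM (-0.59 ± 0.13, adjusted p = 0.127), and the fructose carrier Slc2a5 at 59, 79.3 and 101 TPM against 130.4, 162 and 136 TPM (-0.86 ± 0.26, adjusted p = 0.214). AF-low 1 was the lowest of the AF-low and young libraries for each of these 3, and no AF-low library reached the young range. Tmem119 and Cx3cr1, both much used markers, overlapped at 366, 587 and 462 TPM against 495, 558 and 577 TPM and 334, 431 and 368 TPM against 419, 491 and 497 TPM. Spi1, which encodes the myeloid transcription factor PU.1, stood above young at 818, 591 and 688 TPM in AF-low 1, 2 and 3 and at 369, 415 and 406 TPM in young 1, 2 and 3 (0.80 ± 0.16, adjusted p = 0.0712). Of 51 homeostatic genes 0 passed (2 higher and 8 lower at an unadjusted p under 0.05), and 32 lay under 0. Over all genes, 7150 of 13175 lay under 0 and 6025 (45.7%) above it. Groups did not overlap for 10 of 51 (19.6%) in the lower direction, against 11.1% of all genes, and for 2 of 51 (3.92%) in the higher. The summed level of the homeostatic genes was 40160 to 52090 TPM in AF-low and 50280 to 55090 TPM in young libraries, which overlap.

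**Figure D3:**
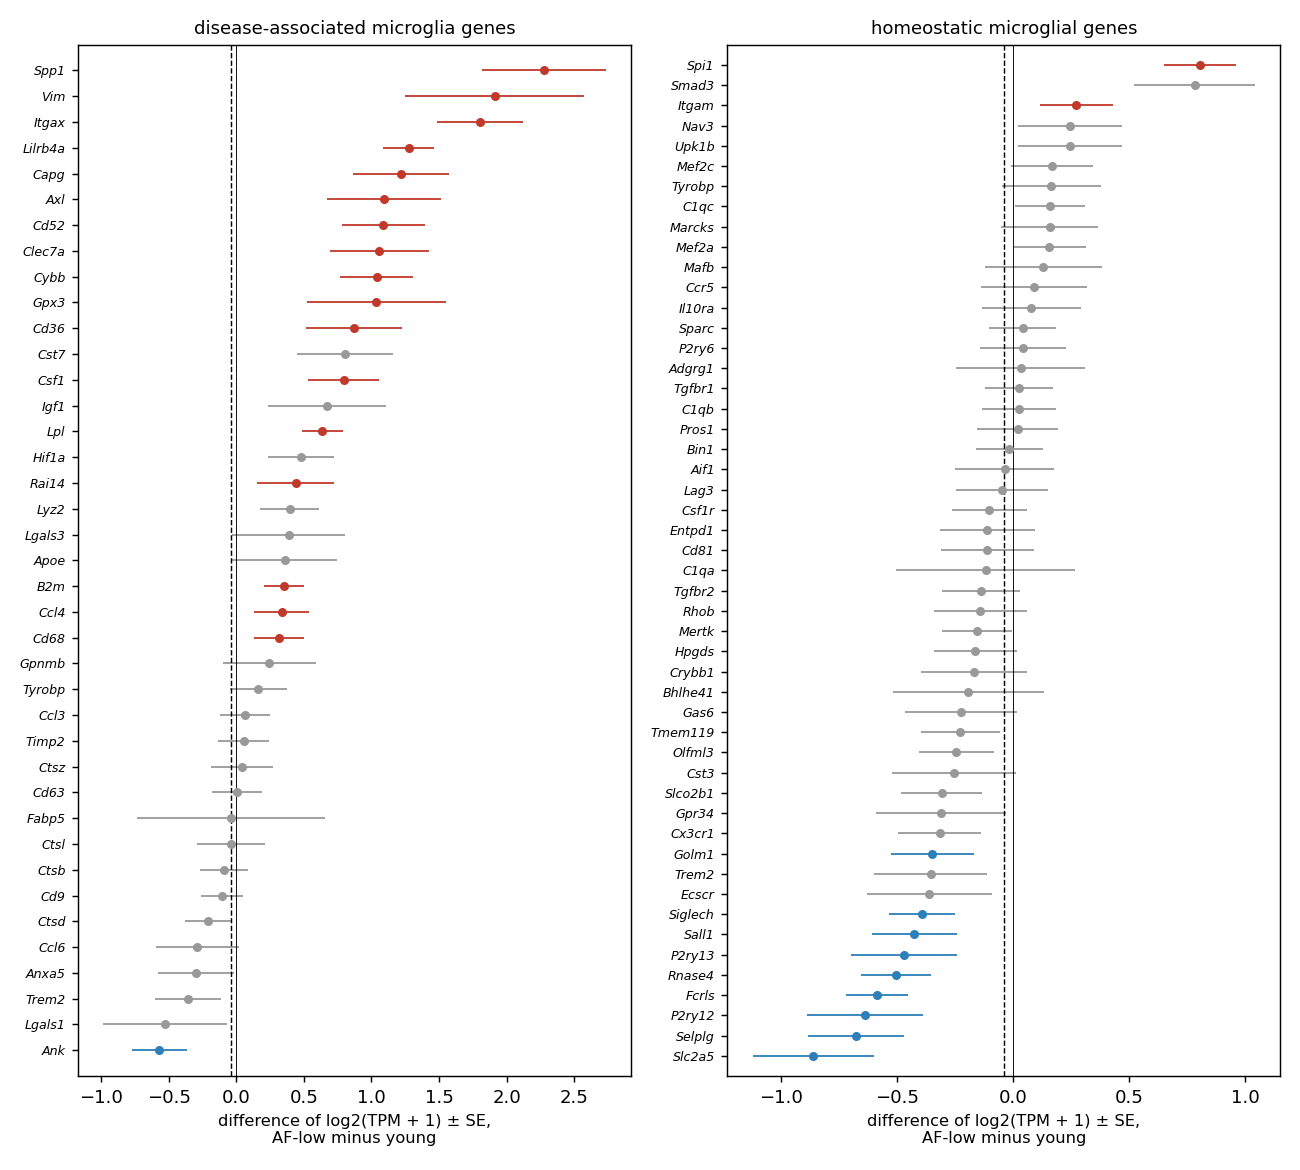
Difference of log2(TPM + 1) ± SE, AF-low minus young, for disease-associated (left) and homeostatic genes (right) that are reported here, with a dashed line at the median of all genes (-0.04); red and blue mark genes whose AF-low libraries lie above or below every young library. Red points fill the upper left panel from Spp1 to Cd68 with gaps, and the blue points lie in the lower part of the right panel.

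Lysosomal genes, the compartment in which lipofuscin collects, lay on both sides of 0. Of 67 tested 0 passed (6 higher and 4 lower at an unadjusted p under 0.05), 31 lay above 0 and 36 under it, and the median of -0.04 (from -0.06 without AF-low 2 to 0.01 without young 2) lay next to that of all genes and was 0.01 under median-ratio scaling. Cd68, a lysosomal membrane protein of phagocytes, was at 1134, 990 and 1250 TPM against 848, 937 and 913 TPM (0.32 ± 0.18, adjusted p = 0.522). The protease Ctsd overlapped at 1938, 2950 and 2186 TPM against 2453, 2745 and 2862 TPM. Slc11a1, a metal pump of the phagosome, was at 164, 148 and 156 TPM against 86.3, 96 and 101 TPM (0.72 ± 0.17, adjusted p = 0.13). Ctso and the endopeptidase Lgmn lay under young, at 24.6, 29.6 and 32.5 TPM against 44.4, 43.9 and 51.2 TPM and 630.1, 678 and 717 TPM against 813, 947 and 895 TPM. Complement genes gave C4b at 9.66, 9.5 and 8.79 TPM against 3.44, 3.09 and 5.17 TPM and the anaphylatoxin receptor C5ar1 at 291, 191 and 384 TPM against 144, 166 and 155 TPM, each above young without overlap. Of 19 complement genes 0 passed (4 higher and 0 lower at an unadjusted p under 0.05) and the median was 0.09 (from 0.01 without young 1 to 0.21 without AF-low 1). The groups did not overlap for 6 complement genes (31.6%) in the higher direction and 2 (10.5%) in the lower. For lysosomal genes these counts were 7 (10.45%) and 10 (14.9%), and over all genes the shares were 8.25% and 11.1%.

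Stress and cell-cycle genes showed single large differences. Hspa8, the constitutive chaperone that uncoats clathrin and feeds chaperone-mediated autophagy, was at 1900, 2728 and 2040 TPM in AF-low 1, 2 and 3 and at 3314, 5456 and 6008 TPM in young 1, 2 and 3 (-1.12 ± 0.24, adjusted p = 0.118). Young 1 was the nearest of its group, yet above every AF-low library. Of 40 heat shock genes 0 passed (1 higher and 4 lower at an unadjusted p under 0.05) and 29 lay under 0, with a median of -0.11 (from -0.20 without young 1 to -0.02 without young 3). Cdkn1a, which encodes the cell-cycle inhibitor p21, was at 1377, 443 and 953 TPM in AF-low 1, 2 and 3 and at 299, 327 and 254 TPM in young 1, 2 and 3 (1.51 ± 0.36, adjusted p = 0.13). AF-low 1 had more than triple the level of AF-low 2, and each exceeded young. Of 22 senescence and inhibitor genes 0 passed (2 higher and 2 lower at an unadjusted p under 0.05), and the median of 0.05 (from -0.05 without young 3 to 0.13 without AF-low 2) turned negative with array weights, without young 1 and without young 3. Stmn1, a tubulin regulator of dividing cells, was at 12.4, 19.8 and 4.17 TPM against 25.4, 28.9 and 22.3 TPM, and 0 of 28 proliferation genes passed (1 higher and 3 lower at an unadjusted p under 0.05). Immediate early genes, which react to handling within minutes, parted: Klf10 was at 134, 76.2 and 132 TPM against 57.1, 50.7 and 39.1 TPM and Fosl2 at 171, 148 and 139.6 TPM against 86.9, 116 and 97.9 TPM, above young, while Dusp6 was at 54.1, 103 and 81.5 TPM against 130.4, 136 and 152 TPM, under it. Fos overlapped at 506, 1236 and 590.1 TPM against 1031, 1549 and 2003 TPM. Among 40 immediate early genes 0 passed (8 higher and 3 lower at an unadjusted p under 0.05), with a median of 0.03 (from -0.03 without young 1 to 0.09 without young 3), which turned negative under quantile normalization, without young 1 and without young 1 and 2 together. Nfe2l2, the master regulator of antioxidant genes, was at 361, 377 and 417 TPM against 239.5, 293 and 279.9 TPM and the antioxidant enzyme Prdx2 at 13, 36.3 and 16.6 TPM against 36.4, 41.1 and 43.2 TPM. Of 35 oxidative stress and iron genes 0 passed (4 higher and 5 lower at an unadjusted p under 0.05). In the lipid list, where 0 of 34 passed (4 higher and 0 lower at an unadjusted p under 0.05), the scavenger receptor Msr1 was at 7.56, 9.4 and 9.45 TPM against 4.17, 5.78 and 5.92 TPM and Insig1, which restrains sterol synthesis, at 16.7, 21 and 16.5 TPM against 24.6, 23.7 and 23 TPM. Mitochondrially encoded genes had a median of 0.21 and 0 of 13 passed (0 higher and 0 lower at an unadjusted p under 0.05). In 6 of these 13 (46.15%) the groups did not overlap in the higher direction, against 8.25% of all genes, and in 0 in the lower. The higher share was 25.7% for oxidative stress and iron, 22.7% for senescence, 22.5% for immediate early and 20.6% for lipid genes. Their lower shares were 14.3%, 13.6%, 5% and 8.82%, against 11.1% of all genes. Heat shock genes had 7.5% in each direction.

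More genes stood next to the threshold by the naming rule. Ildr2, a membrane protein of the immunoglobulin family, was at 15.9, 17.7 and 17.3 TPM in AF-low 1, 2 and 3 and at 7.48, 7.84 and 7.68 TPM in young 1, 2 and 3 (1.05 ± 0.19, adjusted p = 0.056). Both groups were tight, and the AF-low level was more than double. Srgn, the proteoglycan core of secretory granules, was at 798, 717 and 949 TPM against 506, 517 and 528 TPM (0.66 ± 0.12, adjusted p = 0.056). Among lower genes, Mospd1 was at 3.01, 4.13 and 3.3 TPM against 13.4, 11.7 and 8.67 TPM (-1.44 ± 0.27, adjusted p = 0.0637), and Rrp8, a nucleolar methyltransferase, at 1.61, 2.77 and 3.15 TPM against 5.8, 12.9 and 13.4 TPM (-1.69 ± 0.32, adjusted p = 0.0712). Pls3, an actin bundler, was at 4.1, 6.03 and 5.04 TPM against 16.4, 13.9 and 10.5 TPM (-1.26 ± 0.25, adjusted p = 0.0814), and Slc12a2, a sodium, potassium and chloride cotransporter, at 35.1, 37.8 and 35.8 TPM against 58.1, 62 and 55.1 TPM (-0.67 ± 0.14, adjusted p = 0.0814). In none of these 4 was young 3 under 0.5 times both other young libraries. Mospd1 and Pls3 nevertheless fell in the order of the choroid plexus load, with young 1 highest and young 3 lowest. Slc12a2 was also lowest in young 3, and Rrp8 was highest there. The part of that load in these genes was not tested. Abcb1a, the drug pump of brain endothelium, was at 0.41, 0.379 and 1.22 TPM against 5.00, 7.06 and 5.32 TPM (-2.05 ± 0.40, adjusted p = 0.0712), with young 3 between the other 2.

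Further named lower genes belong to other brain cells and were high in young 1 and 2. Fam107a, an astrocyte gene, was at 0.162, 0.208 and 0.442 TPM in AF-low 1, 2 and 3 and at 8.93, 9.96 and 1.48 TPM in young 1, 2 and 3 (-2.35 ± 0.42, adjusted p = 0.056). The glutamate carrier Slc1a2 was at 1.15, 1.26 and 0.884 TPM against 34, 64.1 and 4.27 TPM (-3.45 ± 0.70, adjusted p = 0.0814). Pltp, a phospholipid carrier of vessels, was at 6.07, 3.32 and 3.48 TPM against 23.3, 30.9 and 7.3 TPM (-1.85 ± 0.38, adjusted p = 0.0814). In each of these 3, young 3 was under 0.5 times both other young libraries and nearer to AF-low than to them. Ttr, which encodes transthyretin, abundant in choroid plexus, was at 265, 232 and 50.5 TPM against 7770, 5084 and 176 TPM, so that young 3 lay inside the AF-low range. Astrocyte markers (13 of 24 listed) had a median of -1.52, choroid plexus and ependyma markers (10 of 19) -2.18 (-1.42 without young 1) and oligodendrocyte markers (12 of 20) -0.61. With young 1 and 2 left out these medians came to -0.40, -0.18 and -0.24, and that of endothelial markers went from -0.71 (-0.34 without young 2 and -1.20 without young 3) to 0.05. None (0) of their members passed with all libraries, whereas 46 genes were lower without young 3. Among the non-overlapping lower genes, young 3 was in 43 of 1461 (2.94%) under 0.5 times both other young libraries, against 2.37% of all genes tested. That share cannot measure the load of other cells, because non-overlap already requires young 3 to lie above every AF-low library. Genes such as Ttr, with young 3 inside the AF-low range, are left out of it.

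Of the markers of border-associated macrophages, 22 of 30 lay above 0 and 8 under it. Mrc1, the mannose receptor, was at 28.9, 31.7 and 36 TPM in AF-low 1, 2 and 3 and at 18.5, 16.8 and 18.4 TPM in young 1, 2 and 3 (0.81 ± 0.20, adjusted p = 0.148), and Cd163, the haemoglobin scavenger, at 7.19, 6.11 and 6.35 TPM against 2.41, 2.11 and 3.48 TPM (1.06 ± 0.28, adjusted p = 0.183). Pf4, a chemokine shared with platelets, was at 52.6, 84.7 and 62 TPM against 14.6, 16.6 and 28.3 TPM (1.72 ± 0.47, adjusted p = 0.188). These 3 did not overlap with young, and no value in the table is 0. Of 30 markers tested of 36 listed, 0 passed (9 higher and 1 lower at an unadjusted p under 0.05), 10 of 30 (33.3%) did not overlap in the higher direction and 1 of 30 (3.33%) in the lower, with a median of 0.37 (0.24 without young 2). Of 13 monocyte markers tested of 20 listed, 0 passed (2 higher and 1 lower at an unadjusted p under 0.05), and 9 lay above 0 and 4 under it. Groups did not overlap for 2 (15.4%) in the higher direction, against 8.25% of all genes, and for 0 in the lower. Their differences ran from -1.80 to 2.58, with a median of 0.21 (from 0.09 without AF-low 2 to 0.33 without AF-low 3). At the upper end, the adhesion receptor Cd44 was at 81.7, 5.11 and 27.8 TPM against 3.77, 2.46 and 3.15 TPM (2.58 ± 0.94, adjusted p = 0.291), with AF-low 2 near young and AF-low 1 far above it. Lymphocyte markers (10 of 27 listed) had a median of -0.03 (from -0.16 without young 2 to 0.04 without AF-low 2), whose sign also turned under median-ratio scaling, with array weights and without AF-low 1, and neutrophil markers (5 of 18) 0.15 (0.04 without AF-low 3 and 0.10 without young 2).

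**Figure D4:**
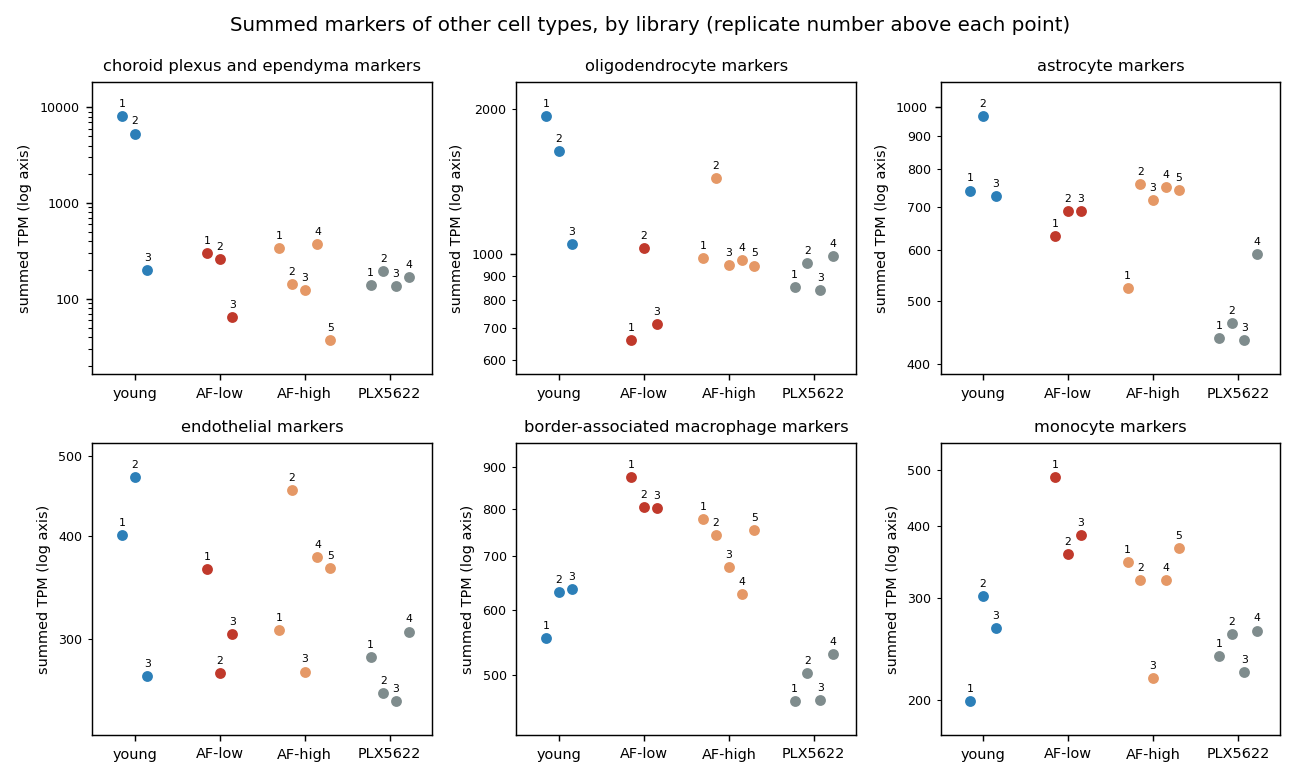
Summed TPM of markers of 6 other cell types in each library, on log axes, with the replicate number above each point. Young 1 and 2 stand apart for choroid plexus markers (8135 and 5339 TPM), and the AF-low points lie above the young points for border-associated macrophage (801 to 876 against 555 to 637 TPM) and monocyte markers.

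The AF-low libraries did not deviate to the same degree. Among the 1087 non-overlapping higher genes, AF-low 2 was the AF-low library nearest to young in 585 (53.8%), AF-low 3 in 288 and AF-low 1 in 214. In the 1461 lower ones it was nearest in 752 (51.5%). These shares were counted after the values were seen and describe the libraries without a test.

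The 6 genes were called on their AF-low and young levels. A difference of another old group from either reuses values that chose the genes, so the values are given side by side. Lowest, median and highest levels over the 5 AF-high libraries were 26.1, 33.6 and 41.8 TPM for Ifi207 (AF-high minus young 1.09 ± 0.20, adjusted p = 0.073). They were 151, 171 and 216 TPM for Lilrb4a (0.79 ± 0.17, adjusted p = 0.121) and 118, 204 and 249.9 TPM for Emp3 (1.43 ± 0.28, adjusted p = 0.0933). For Ptger4 they were 20.3, 24.9 and 26.3 TPM (0.58 ± 0.18, adjusted p = 0.246). Every AF-high library lay above every young one for these 4. Diaph1, at 15.4, 20.1 and 30.4 TPM (0.41 ± 0.21, adjusted p = 0.503), and Cxcl13, at 0.252, 3.03 and 6.71 TPM (1.44 ± 0.47, adjusted p = 0.279), had 4 of 5 AF-high libraries above young, and none reached the AF-low range. Tested directly, AF-high minus AF-low was -1.07 ± 0.21, adjusted p = 0.441 for Diaph1 and -1.73 ± 0.47, adjusted p = 0.471 for Cxcl13. No gene (0 of 13175, with 1082 at an unadjusted p under 0.05) passed between the gates, so none of the 6 is shown to differ between AF-low and AF-high. The fit takes the libraries of both gates as independent, and a pairing between them was not tested. In the 4 PLX5622 libraries Cxcl13 had 14.5, 21.5 and 27 TPM (PLX5622 minus young 3.89 ± 0.49, adjusted p = 0.00609). Emp3 was at 75.9, 83.7 and 93.1 TPM there (0.32 ± 0.29, adjusted p = 0.979), and PLX5622 minus AF-low was -1.66 ± 0.29 (adjusted p = 0.0423). For Diaph1 the PLX5622 levels were 15.3, 18.5 and 24.4 TPM, and PLX5622 minus AF-low was -1.23 ± 0.22 (adjusted p = 0.0423). Ifi207 was at 24.7, 27.4 and 36.9 TPM in PLX5622 (minus young 0.86 ± 0.21, adjusted p = 0.249, and minus AF-low -0.70 ± 0.21, adjusted p = 0.16). Lilrb4a was at 166, 184 and 200.3 TPM (minus young 0.83 ± 0.18, adjusted p = 0.116, and minus AF-low -0.45 ± 0.18, adjusted p = 0.265). Ptger4 was at 22.4, 25.8 and 35.5 TPM (minus young 0.74 ± 0.18, adjusted p = 0.249, and minus AF-low -0.45 ± 0.18, adjusted p = 0.287). For these 3, each of the 4 PLX5622 libraries lay above every young one, and no difference from young or from AF-low passed. All 4 PLX5622 libraries also lay above every young one for Emp3 and Cxcl13, and 3 of 4 did for Diaph1. Emp3 and Diaph1 passed between AF-low and PLX5622, and Cxcl13 was above young in both. The AF-low and young values that chose these genes enter those differences, which are therefore not separate support.

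**Figure D5:**
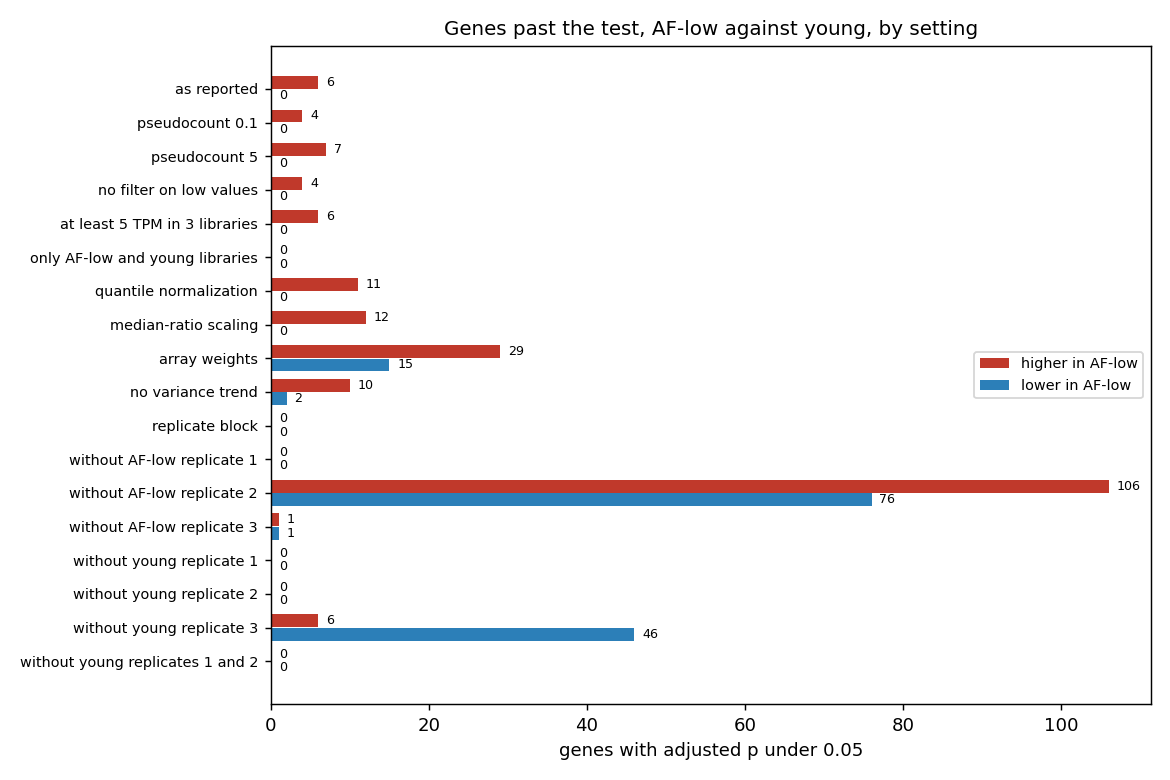
Number of genes with adjusted p under 0.05, higher (red) and lower (blue) in AF-low than in young, as reported and under each alternative. The count runs from 0 without young 1 or young 2 to 106 higher and 76 lower without AF-low 2.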

How the data were processed

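RNA of sorted brain microglia was amplified with the Ovation system and sequenced, per the labels' protocols. The authors deposited TPM values, 1 column per library, matched to the labels by the description field. Per the submitters' processing notes, FastQC 0.11.8, Salmon 1.0.0 and DESeq2 were used with GRCm38; no source used here states the filter or the annotation. The table has 13834 rows and no value of 0, library totals of 956489 to 963145 TPM, and 19 symbols turned into dates, which stayed in the fit but were neither listed nor named; the depth in reads is unknown. No 2 libraries were identical (0 pairs).

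All 15 libraries entered 1 linear model of log2(TPM + 1) in limma 3.58.1 (R 4.3.3; eBayes with a variance trend, 11 residual and 4.15 prior degrees of freedom), two-sided, with Benjamini-Hochberg adjustment over 13175 genes and a threshold of 0.05. Differences on this scale understate changes of low genes. Named are the called genes, the next 10 in each direction (mean of at least 5 TPM, no overlap), the 3 leading genes per list and direction, and a panel; some of these are not reported here. Members, lists and panel were chosen with earlier results of these data known; motifs were chosen after the called genes were seen. Scripts were tested on simulated data. Positions are from GENCODE M21 and promoters from RefSeq (GRCm38.p6). Figures were drawn with matplotlib 3.10.9.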

Additional observations from a re-analysis of the deposited data

How the results depend on the processing

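Between AF-low and young, 6 genes were higher and 0 lower. The count of higher genes was 4 with a pseudocount of 0.1 or without a filter, 7 with a pseudocount of 5, 11 after quantile normalization, 12 after median-ratio scaling and 6 with a filter at 5 TPM. It was 29 with array weights, with 15 lower, and 10 without a variance trend, with 2 lower. With the AF-low and young libraries alone it was 0, with 1689 genes at an unadjusted p under 0.05, and 0 without young 1 and 2 together, where the lone young library is taken to vary like the others. Leaving out 1 library at a time gave 0 to 106 higher and 0 to 76 lower. A replicate block left 0 higher and 0 lower (limma, smallest adjusted p = 0.127). Same-numbered AF-low and young libraries deviated with r = -0.03, -0.07 and 0.01 over genes. Of the 3 AF-low libraries only AF-low 3 correlated best with its own number. These r values show no pairing by number, but deviations from means of 3 libraries cannot exclude one. Over 17 alternatives the 6 genes kept their direction; Ifi207, Lilrb4a, Diaph1 and Emp3 stayed past the threshold in 10, Cxcl13 in 8 and Ptger4 in 7. Why these counts differ was not tested. TPM keeps no depth, so the counting error of low genes is unknown.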
